A study of Mus musculus with 18 samples.

Results

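The presynaptic active zone scaffolds described here are the products of 10 genes, Pclo, Bsn, Rims1, Rims2, Rims3, Rimbp2, Unc13a, Erc1, Erc2 and Ppfia3, chosen by name from the deposited count tables of mouse hippocampus. The members were chosen with earlier results of these data known, in which Pclo, Rims1 and Rims3 stood out in the comparison of tTA::miR132 with its controls, so their values in that comparison are given as a description without a test. The table of the deletion lists 9 of them among 10541 genes (all but Rims3), the tTA::miR132 table lists 10 among 10799 genes, and the tTA::miR212 table lists 10 among 4618 gene symbols. Together the tables name 11738 gene symbols. Every listed member passed the filter on low counts in its table.

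Polyadenylated RNA was sequenced from the hippocampi of C57BL/6 mice in 3 comparisons, and 14 libraries were analysed. The conditional knockout group (cKO) is CaMKII-Cre::miR-132/212f/f, in which Cre under the CaMKII promoter, active in excitatory forebrain neurons, removes the floxed miR-132 and miR-212 genes, and it has 2 libraries against 2 of its nontransgenic controls. The tTA::miR132 group, in which a tetracycline transactivator drives a miR-132 transgene, has 2 libraries against 2 of its own nontransgenic controls. The tTA::miR212 group has 3 libraries against 3 of its own nontransgenic controls, and the third library that the labels list for each of the other 4 groups is not analysed here. No source used here gives the promoter that drives tTA or the age of the mice. Each group's replicates are pools of cDNA from 6 animals. The controls lack the Cre or tTA as well as the change in microRNA, so the driver and the microRNA cannot be told apart. Libraries are named by the number in the column name (library 1, 2 or 3), which ties a column to its group but not to 1 labelled sample. Nothing beyond the labels' word replicate says how the pools were drawn, so p-values measure the spread between these libraries, which may be technical.

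The active zone is the patch of presynaptic membrane where synaptic vesicles dock, are primed and fuse when calcium enters. Its scaffold proteins bind one another, tether vesicles through Rab3, hold calcium channels close to the docked vesicles and, through Munc13 proteins, make vesicles ready to fuse. In the hippocampus RIM proteins and Munc13-1 are known for their part in release probability and in presynaptic plasticity. miR-132 and miR-212 are neuronal microRNAs made from 1 locus and induced by activity through CREB, and a microRNA pairs through its seed with sites in messenger RNAs, whose level or translation it lowers.

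Both microRNAs have the same seed, which is why they are set side by side here. The mature sequences are given 5′ to 3′ from RefSeq (GRCm38.p6, chromosome 11), with bases 2 to 8, the seed, in capitals.
mmu-miR-132-3p: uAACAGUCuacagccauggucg
mmu-miR-212-3p: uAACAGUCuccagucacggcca
A site for this seed was sought on the transcript strand of the longest annotated 3′ UTR of each gene (GENCODE vM1, build NCBIM37, the same assembly as mm9). The letters searched were GACTGTT, which pairs with bases 2 to 8, and ACTGTTA, which pairs with bases 2 to 7 and ends in A; a GACTGTTA holds both and was counted once. One match each was found in 3 of the 10 members, Bsn, Unc13a and Erc1, shown with the matched letters in capitals.
Bsn: cctcaaagacaACTGTTAatatttaataa
Unc13a: tcccaggctagGACTGTTtgaaatttcct
Erc1: tcagagattctGACTGTTcaaagacatgt
The Bsn match lies on the minus strand at chr9:108000932-108000938, at base 1398 of a 3′ UTR of 3982 bases. The Unc13a match lies on the minus strand at chr8:74152201-74152207, at base 1115 of 2708, and the Erc1 match on the minus strand at chr6:119522267-119522273, at base 3370 of 4821. Of the 3′ UTRs of 19915 genes, 16.3% hold such a match, and long 3′ UTRs hold one more often. Among UTRs within 1.2 times the length of the member's own, the share was 42.7% for Bsn, 33.5% for Unc13a and 50.2% for Erc1. The 3′ UTR of Pclo, at 8876 bases the longest of the 10, holds no match, while 75.0% of the 80 UTRs of like length do. No match says only that these letters are not in the UTR searched.

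The genes are spread over 9 chromosomes, and their positions are given in mm9 coordinates from GENCODE vM1. Pclo, on the plus strand of chromosome 5 (14514918 to 14863457), encodes piccolo, a giant scaffold that organises the matrix of the active zone and links it to actin. Bsn, on the minus strand of chromosome 9 (107998354 to 108092715), encodes bassoon, its close relative and partner. Rims1 (chromosome 1, 22276332 to 22911673, minus strand) and Rims2 (chromosome 15, 39029878 to 39513486, plus strand) encode the long RIM proteins, which bind Rab3, Munc13 and calcium channels. Rims3 (chromosome 4, 120527421 to 120569184, plus strand) encodes a short RIM of the gamma kind. Rimbp2 (chromosome 5, 129266276 to 129459237, minus strand) encodes a RIM-binding protein that joins RIM to calcium channels. Unc13a (chromosome 8, 74150614 to 74195656, minus strand) encodes Munc13-1, the vesicle priming factor. Erc1 (chromosome 6, 119520822 to 119798168, minus strand) and Erc2 (chromosome 14, 28435614 to 29291721, plus strand) encode ELKS and CAST, coiled-coil proteins that bind RIM, bassoon and liprins. Ppfia3 (chromosome 7, 52594496 to 52622389, minus strand) encodes liprin-alpha-3, which links active zone proteins to receptor phosphatases. For 7 of the 10, the tTA::miR212 table gives the same start and end as vM1, while Pclo, Rims1 and Unc13a differ, so the gene models behind the counts were not the ones used here in every case.

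The libraries differ in quality in ways that touch the members. Counts over the listed genes summed to 9408155 and 9702801 in the cKO libraries against 9432812 and 8190899 in their controls, to 14772907 and 8772987 in tTA::miR132 against 9899963 and 8301385 in its controls, and to 3146667 to 3739682 in tTA::miR212 against 3140536 to 3279620 in its controls, over overlapping transcripts. Library 1 of the cKO stands apart, with 9.93% of the genes at 0 against 1.14% in library 2 and 0.854% and 0.693% in the controls. In the tTA::miR132 table, control library 2 has 4.49% of the genes at 0 and control library 1 has 1.44%, against 2.43% and 0.852% in tTA::miR132 libraries 1 and 2. The biological coefficient of variation was 74.2% for the deletion, 60.7% in the tTA::miR132 table and 8.58% in the tTA::miR212 table. The genes of both microRNAs are not among those listed, so they give no check of the labels. Neuronal markers were high in all 14 libraries, and the 7 markers of pyramidal and granule neurons were all measured in each table, with Prox1, a granule cell factor, at 0 in at least 1 library of the deletion table. Amplified reads without molecular identifiers are not independent molecules, so counting error understates the error of these values. In bulk tissue fewer cells of a type and less RNA per cell cannot be told apart.

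In the tTA::miR212 table a length could be given to the transcript row kept for each gene, the one with the highest mean count. On the rows kept, bassoon had the highest level of the 10 per kilobase and ELKS the lowest. As CPM (counts per 1000000 counts kept) per kilobase of exon, Bsn was at 94.7 ± 14.8 in tTA::miR212 and 92.7 ± 3.89 in controls (SD, n = 3 each, as for the other levels of this paragraph). Next came Ppfia3 at 76.5 ± 6.72 in tTA::miR212 and 75.7 ± 4.18 in controls, and Unc13a at 60.1 ± 5.19 in tTA::miR212 and 63.7 ± 3.71 in controls. Those 3 genes did not overlap with each other or with the next gene across the control libraries. Rimbp2, Rims1, Erc2 and Rims3 followed at 40.5, 41.8, 44.3 and 33.7 in tTA::miR212 and at 47.4, 46.1, 43.8 and 38.1 in controls, and in the controls each overlapped with its neighbour in this order. Pclo was lower, at 32.5 ± 3.62 in tTA::miR212 and 28.2 ± 0.704 in controls, Rims2 was at 18.4 ± 1.48 in tTA::miR212 and 17.7 ± 1.80 in controls, and Erc1 at 17.6 ± 0.959 in tTA::miR212 and 15.04 ± 0.405 in controls. The last place of Erc1 depends on the row kept. Its other row, ENSMUST00000071356, held a mean count of 189.5 against 190.3, over 3285 instead of 8356 bases of exon. That row had 57.7 mean counts per kilobase, against 22.8 for the kept Erc1 row and 60.7 for the kept Rims1 row. Oligo(dT) priming, the choice of row and lengths taken from another annotation limit this order of levels.

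**Figure D1:**
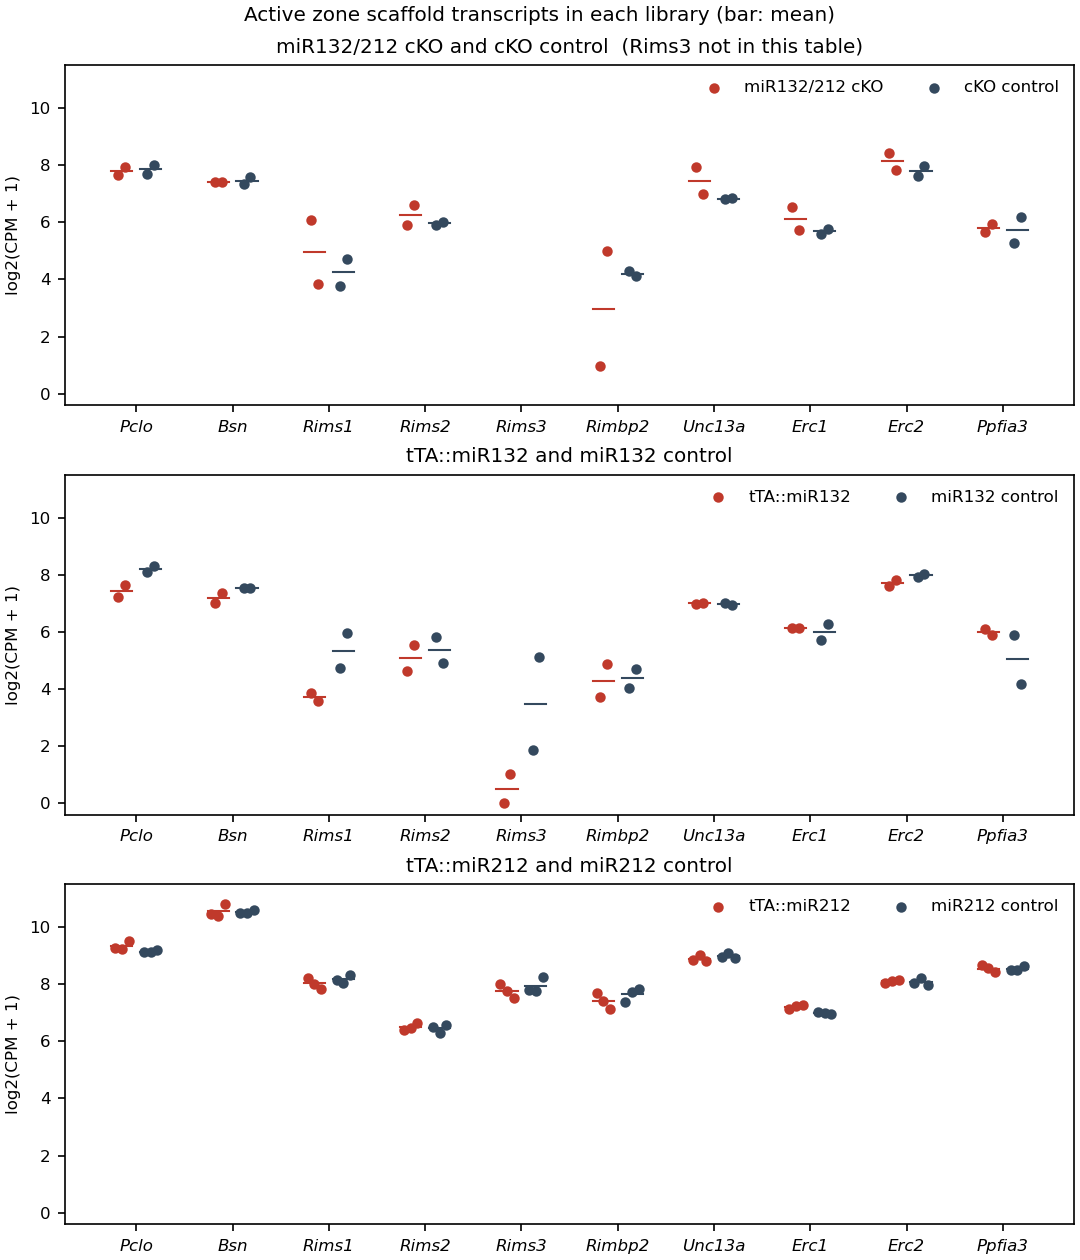
Levels of the 10 genes in each library as log2(CPM + 1), with the transgenic or deleted group in red at the left and its nontransgenic controls in dark blue at the right, and a bar at each group's mean. In the middle panel both tTA::miR132 libraries lie below both control libraries for Pclo, Bsn, Rims1, Rims3 and Erc2, while in the bottom panel the groups lie close together.

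The deletion asks how active zone transcripts respond to the loss of both microRNAs from excitatory neurons. With 2 libraries a group, none of the 9 listed members passed the test, and Unc13a was the 1 member whose groups did not overlap. Unc13a had 245 and 125 CPM in cKO libraries 1 and 2, against 112 and 114 CPM in controls, a log2 fold change of 0.75 (SE 0.40; edgeR quasi-likelihood test, adjusted p = 0.999). Both deletion libraries were above both controls, but library 1 carried most of the difference, and without it the log2 fold change was 0.14. Without library 2, with library 1 alone in its group, the log2 fold change of Unc13a was 1.18. Over all 10541 genes, 14.3% had both cKO libraries above both controls and 17.9% had both below (32.2% either way), set against 1 of 9 members above and 0 of 9 below. The share of genes called by edgeR was 0% (0 of 10487), with 88 at an unadjusted p under 0.05, and DESeq2 called 5 genes and limma-voom 0, none of them a member.

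The same library was high for the ELKS family and RIM1 and very low for RIM-BP2. Erc1 had 91.7 and 52.1 CPM in cKO libraries 1 and 2, against 47.2 and 53.6 CPM in controls (log2 fold change 0.55, SE 0.48). Erc2 had 347 and 229.6 CPM in cKO, against 194 and 252 CPM in controls (0.40, SE 0.31). In both genes library 1 was the highest of the 4 and library 2 lay within the control range.

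Rims1 had 66.9 and 13.2 CPM in cKO libraries 1 and 2, against 12.7 and 25.5 CPM in controls (log2 fold change 1.11, SE 0.97). Library 1 was the highest of the 4 and library 2 lay between the controls, and the fold change was -0.55 without library 1 and 1.87 without library 2. The 629 counts of Rims1 in library 1 were 3.90 times those the other libraries would give, and 3.98% of the 2036 genes of like expected count were as high or higher for their expectation. Rimbp2 had 9 and 298 counts (0.957 and 30.7 CPM) in cKO, against 174 and 133 counts (18.4 and 16.2 CPM) in controls. The 2 deletion libraries lay on opposite sides of the controls, and the log2 fold change was -0.14 (SE 1.61), or 0.81 without library 1 and -4.10 without library 2. The 9 counts compare with 205 expected, and 19.8% of 2356 genes of like expected count were as low in that library, so a value of this size is common there.

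The giant scaffolds lay within the range of their controls or close to it. Pclo had 1882 and 2369 counts in cKO, against 1963 and 2097 counts in controls, or 222 ± 31.2 CPM in cKO against 232 ± 33.9 CPM in controls (SD, n = 2 each), a log2 fold change of -0.04 (SE 0.25), and Bsn had 169 and 169 CPM in cKO against 159.5 and 192 CPM in controls (-0.03, SE 0.26). The groups overlapped in both genes. Rims2 had 58.5 and 96.6 CPM in cKO, against 59.5 and 63.5 CPM in controls (0.35, SE 0.42), and Ppfia3 had 49.7 and 60.4 CPM in cKO against 37.6 and 71.8 CPM in controls (0.03, SE 0.52). For all of these genes and those of the preceding paragraphs the adjusted p was 0.999 (edgeR quasi-likelihood test), and the standard errors leave room for sizeable differences. Over the 9 members the median log2 fold change was 0.35, with 6 above 0 and 3 below, beside a median of -0.03 over the 10487 genes tested. Choroid plexus markers, of the epithelium that lies beside the hippocampus, summed to 963 and 2522 CPM in cKO against 5488 and 6375 CPM in controls. Of the 9 choroid plexus markers 8 were lower in both deletion libraries, with Folr1, Otx2, Clic6, Kcne2 and Aqp1 at 0 in at least 1 library, and the part of this difference in the members' values was not tested.

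With miR-132 supplied by the transgene, transcripts of piccolo, bassoon, RIM1, RIM3 and CAST were lower in both libraries than in both controls, and the values are given here without a test. Pclo had 149 and 199 CPM in tTA::miR132 libraries 1 and 2, against 269.8 and 318 CPM in controls, or 174 ± 35.5 CPM in tTA::miR132 against 294 ± 34.3 CPM in controls (SD, n = 2 each). All of its tTA::miR132 values lay below both controls, a ratio of 0.591 and a log2 fold change of -0.81 (SE 0.25), which stayed between -1.02 and -0.62 when any 1 library was left out.

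Bassoon showed a smaller difference of the same direction. Bsn had 126 and 164 CPM in tTA::miR132, against 184 and 186 CPM in controls, with a log2 fold change of -0.39 (SE 0.27). Both tTA::miR132 libraries were below the controls, which lay close together. Without tTA::miR132 library 1, the lower of that group, the fold change was -0.23, and without library 2 it was -0.58.

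Rims1 and Rims3 had low counts in this table and the largest differences of the 10. Rims1 had 13.7 and 10.9 CPM (202 and 96 counts) in tTA::miR132, against 25.4 and 60.7 CPM (251 and 504 counts) in controls, a log2 fold change of -1.86 (SE 0.73). Both tTA::miR132 libraries were below both controls, which differed more from each other than the tTA::miR132 libraries did. Without control library 2 the fold change was -1.05. Rims3 had 0 and 1.03 CPM (0 and 9 counts) in tTA::miR132, against 2.63 and 33.8 CPM (26 and 281 counts) in controls, and its fitted log2 fold change was -5.25 (SE 2.27).

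The Rims3 difference rests most on control library 2, without which it was -2.39. Without tTA::miR132 library 1, which held the 0, it was -4.21. A fold against a 0 depends on the prior count. Rims2, the other long RIM, had 23.6 and 45.5 CPM in tTA::miR132, against 56.2 and 29.0 CPM in controls (-0.34, SE 0.59). Its groups overlapped.

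Of the remaining members, CAST was lower by a small amount and the others overlapped with their controls. Erc2 had 194 and 225 CPM in tTA::miR132, against 244 and 261 CPM in controls (log2 fold change -0.31, SE 0.23), with both tTA::miR132 libraries below both controls. Erc1 had 69.7 and 69.2 CPM in tTA::miR132, against 51.4 and 76.9 CPM in controls (0.07, SE 0.42). Unc13a was the steadiest of the 10 across this table, with 124 and 129 CPM in tTA::miR132 against 126 and 121 CPM in controls (-0.01, SE 0.30).

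Rimbp2 had 12.0 and 28.3 CPM in tTA::miR132, against 15.6 and 24.9 CPM in controls (-0.06, SE 0.85). Ppfia3 had 67.9 and 57.8 CPM in tTA::miR132, against 57.9 and 17.2 CPM in controls (0.71, SE 0.58). Its high ratio rests on control library 2, where 143 counts compare with 508 expected, and without that library the fold change was 0.11. The groups of Rimbp2 and Ppfia3 overlapped.

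In all, 5 of 10 members had both tTA::miR132 libraries below both controls and 0 of 10 had both above, where 14.2% and 18.7% of the 10799 genes did so (32.9% either way). Since the members were picked with part of this known, the count says nothing beyond the choice. The median log2 fold change of the members was -0.33, with 8 below 0 and 2 above, beside -0.00 over the 10734 genes tested. No gene of the table was called by edgeR (0%), with 303 at an unadjusted p under 0.05, while DESeq2 called 39 genes and limma-voom 2. Of the members with a seed match, Bsn was lower in both tTA::miR132 libraries, and Unc13a and Erc1 overlapped with their controls. Pclo, Rims1, Rims3 and Erc2, the other members below their controls, have no match in the UTR searched. The 6 measured oligodendrocyte markers summed to 4570 and 4416 CPM in tTA::miR132 against 3611 and 3825 CPM in controls, with 4 of 6 higher and 1 of 6 lower in both libraries and none at 0. The 5 measured general neuronal markers summed to 6428 and 6373 CPM in tTA::miR132 against 6967 and 5848 CPM in controls, with no marker whose groups were apart and none at 0. The 9 choroid plexus markers summed to 4995 and 3667.5 CPM in tTA::miR132 against 6518 and 4962 CPM in controls, with 4 of 9 lower and 1 of 9 higher in both libraries. The part of these markers in the members' values was not tested.

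**Figure D2:**
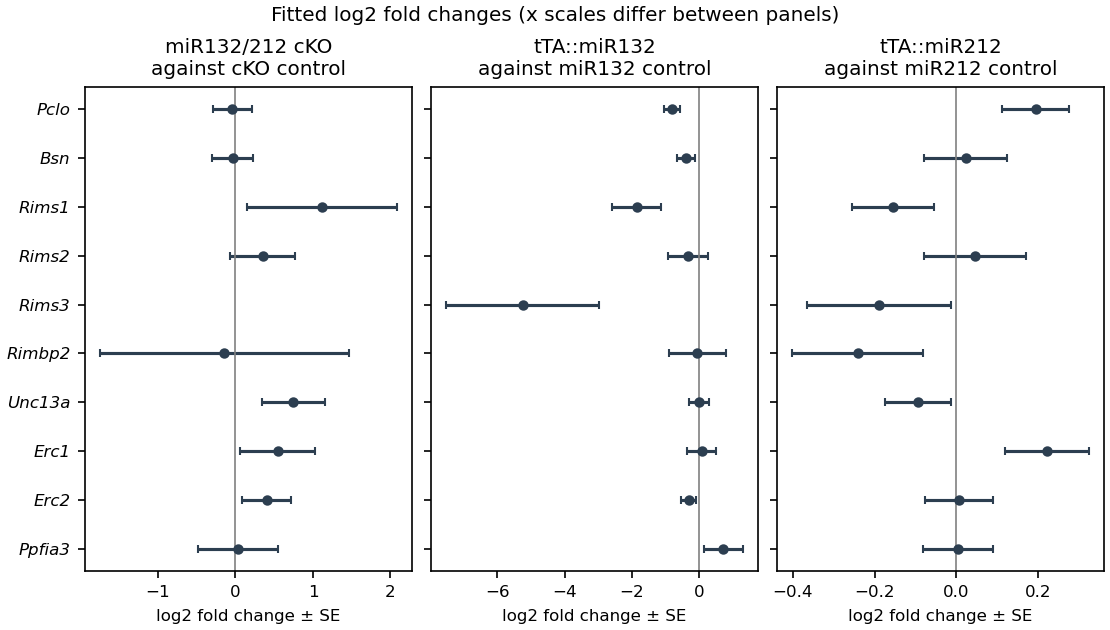
Fitted log2 fold changes of the 10 genes with their standard errors in each comparison, from the fits across whole tables. The x axes differ: the tTA::miR132 panel is widened by Rims3 at -5.25 ± 2.27, while in the tTA::miR212 panel every value lies between -0.24 and 0.22.

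Gain of miR-212, which has the same seed, was measured in 3 libraries a group with a much smaller spread, and no member passed the test. Pclo had 613, 604 and 734 CPM in tTA::miR212 libraries 1, 2 and 3, against 556, 557 and 581 CPM in controls. All 3 tTA::miR212 libraries were above all 3 controls, with library 3 the highest (log2 fold change 0.19, SE 0.08; edgeR quasi-likelihood test, unadjusted p = 0.029, adjusted p = 0.843). Without library 3 the fold change was 0.09. Erc1 had 139, 149 and 155 CPM in tTA::miR212, against 129, 126 and 122 CPM in controls, and again the groups did not overlap (0.22, SE 0.10, adjusted p = 0.876). Its fold change stayed between 0.18 and 0.26 with any 1 library left out.

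These were 2 of 10 members with every tTA::miR212 library above every control, and 0 of 10 lay below, beside 6.47% and 4.96% of the 4618 genes (11.4% either way). The share of genes called was 0% by edgeR, with 261 at an unadjusted p under 0.05, and DESeq2 and limma-voom called 0 genes as well. Rims1 had 297, 257 and 229 CPM in tTA::miR212, against 281, 264 and 319 CPM in controls (log2 fold change -0.15, SE 0.10, adjusted p = 0.913). Rimbp2 had 208, 170.2 and 138 CPM in tTA::miR212, against 166, 213 and 225 CPM in controls (-0.24, SE 0.16, adjusted p = 0.913). Rims3 had 259, 218 and 181 CPM in tTA::miR212, against 223, 215 and 305 CPM in controls (-0.19, SE 0.18, adjusted p = 0.935). In each of these 3 genes tTA::miR212 library 3 was the lowest of the 6, and the groups overlapped. Single libraries moved these values: without control library 3 the log2 fold change was -0.01 for Rims3, -0.07 for Rims1 and -0.15 for Rimbp2, without tTA::miR212 library 3 it was -0.07, -0.07 and -0.11 for the same genes, and without tTA::miR212 library 1 it was -0.33, -0.26 and -0.40. Rimbp2 was also at -0.37 without control library 1.

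The other members differed less. Bsn was at 1509.5 ± 236 CPM in tTA::miR212 and 1477 ± 61.7 CPM in controls (SD, n = 3 each; log2 fold change 0.02, SE 0.10), with library 3 of tTA::miR212 the highest at 1781 CPM. Unc13a was at 478 ± 41.3 CPM in tTA::miR212 and 507 ± 29.6 CPM in controls (-0.09, SE 0.08), and Rims2 at 90.2 ± 7.26 CPM in tTA::miR212 and 86.9 ± 8.84 CPM in controls (0.05, SE 0.12). Erc2 was at 273 ± 9.80 CPM in tTA::miR212 and 271 ± 22.4 CPM in controls (0.01, SE 0.08), and Ppfia3 at 374 ± 32.9 CPM in tTA::miR212 and 370.2 ± 20.5 CPM in controls (0.00, SE 0.08). The groups overlapped in all 5 genes, whose adjusted p ran from 0.931 for Unc13a to 0.997 for Ppfia3 (edgeR quasi-likelihood test). Over the 10 members the median log2 fold change was 0.00, with 6 above 0 and 4 below, equal to 2 decimals to that over the 4618 genes. Summed over the members, tTA::miR212 libraries held 4125, 4013 and 4387 CPM and controls 4008, 4081 and 4327 CPM. The 7 pyramidal and granule neuron markers summed to 7148 to 7633 CPM in tTA::miR212 and 7464 to 7695 CPM in controls, overlapping in their sum and in each marker. Astrocyte markers, of which 3 of 7 were higher and 1 of 7 lower in every tTA::miR212 library and none was at 0, summed to 6460 to 8497 CPM in tTA::miR212 and 6733 to 7145 CPM in controls. The sum was highest in library 3, which is also the library where several members stood apart, and the part of these markers was not tested.

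The tTA::miR212 table counts transcripts, 36 for the 10 genes among 11706 in all, and reads of 1 gene enter several of them. Their fold changes therefore repeat each other and are not independent. The 3 Pclo transcripts had log2 fold changes of 0.19, 0.19 and 0.22 (SE 0.08, 0.08 and 0.09). For Rims1, with 8 transcripts, values ran from -0.16 for ENSMUST00000097811 to -0.02 for ENSMUST00000080230. The transcript ENSMUST00000097808 of Rims1 held 78.3% to 80.8% as many counts as the kept one in tTA::miR212 and 73.3% to 76.7% in controls, so the ratios did not overlap. The short Ppfia3 transcript ENSMUST00000130143 held 20.2% to 20.9% of the top count in tTA::miR212 and 21.7% to 24.1% in controls, again without overlap. Its near twin ENSMUST00000151970, with almost the same counts, reached 21.1% in tTA::miR212 and held 20.96% to 23.9% in controls, which overlapped. The Ppfia3 separation therefore rests on a few counts. In every other row that was not kept the ranges overlapped. For Bsn the second transcript held 47.8% to 51.9% in tTA::miR212 and 47.8% to 49.0% in controls, which overlapped. These ratios are descriptions and were not tested.

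**Figure D3:**
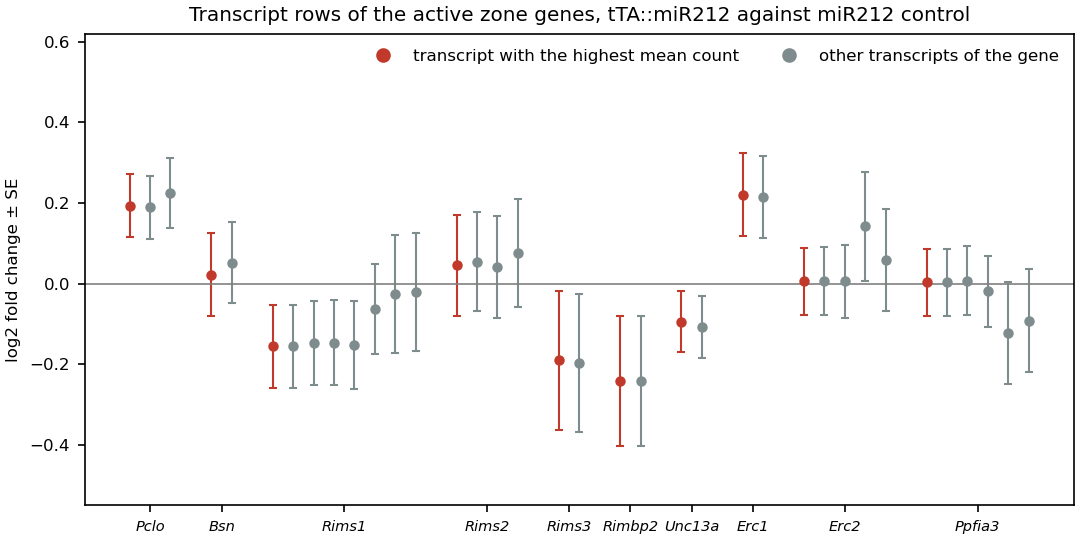
Log2 fold change and standard error of each of the 36 transcript rows, tTA::miR212 against its controls, grouped by gene on the x axis, with the kept row of a gene, that of highest mean count, in red. The rows of 1 gene share reads and lie close together, with all 3 Pclo rows and both Erc1 rows above 0 and all Rims1 rows at or below -0.02.

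Read across the comparisons, no member had groups that lay apart in the same direction more than once. Pclo was at a log2 fold change of -0.04 in the deletion, -0.81 in tTA::miR132 and 0.19 in tTA::miR212. Rims1 was at 1.11, -1.86 and -0.15, with standard errors of 0.97, 0.73 and 0.10 in that order. Erc1 was at 0.55, 0.07 and 0.22 in the same order, but at 0.038 in the deletion without cKO library 1 and at -0.21 in tTA::miR132 without control library 1. Bsn was at -0.03, -0.39 and 0.02. The comparisons have their own controls and tables, and differences between them were not tested.

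**Figure D4:**
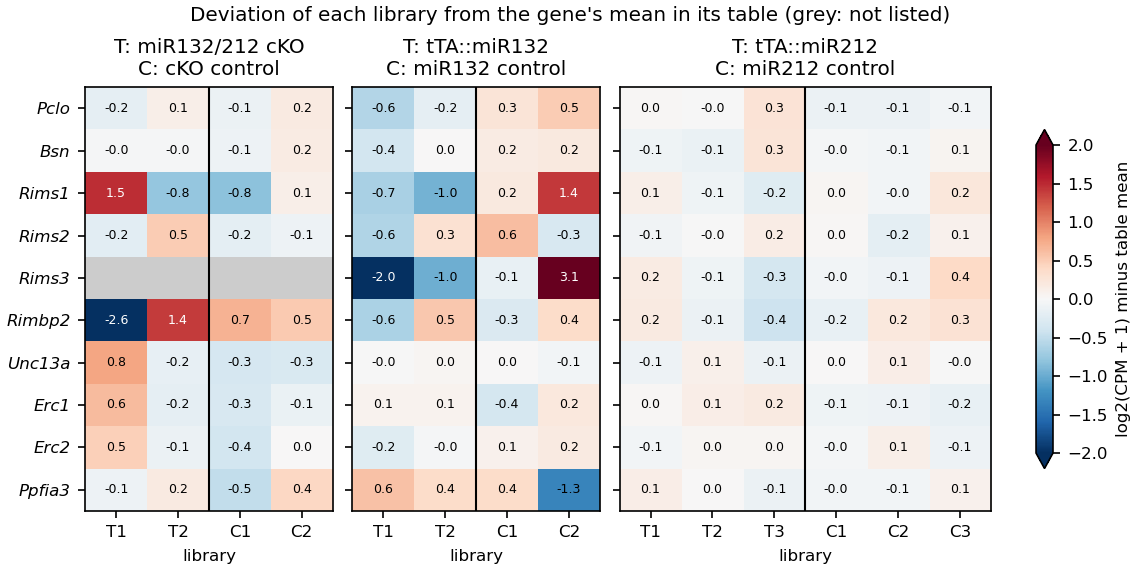
Deviation of each library from the gene's mean over its table, as log2(CPM + 1), with genes in rows and libraries in columns (T, deleted or transgenic; C, nontransgenic control; grey, not listed). Deletion library 1 is high for Rims1 and low for Rimbp2, control library 2 of tTA::miR132 is high for Rims3 and Rims1 and low for Ppfia3, and all tTA::miR212 deviations are small.

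Across the 14 libraries, with each table centred on its own mean, piccolo and bassoon were the most alike in pattern of the 9 members listed in every table. Pclo and Bsn had a Pearson r of 0.861, and Bsn was the 12th gene closest to Pclo among 4104 genes listed in all tables. Rims1 and Erc2 had 0.802, Unc13a and Erc2 0.773, and Unc13a and Erc1 0.731, while Rimbp2 and Unc13a had -0.839. The libraries of a table share their processing, and deletion library 1, in which Rimbp2 is lowest and Unc13a highest, weighs heavily in these values, which are given as a description. The genes closest to Pclo were Myo5a (0.944), Ppp1r13b (0.927) and Camk4 (0.918), and Myo5a (0.905), Camk4 (0.874) and Purb (0.866) were closest to Bsn. The closest to Rims1 was Slc39a10 (0.973), to Rims2 Rgs5 (0.908), to Rimbp2 Fam115a (0.964), to Unc13a Ahdc1 (0.938), to Erc1 Pcyox1 (0.936), to Erc2 Vdac1 (0.950) and to Ppfia3 Dnajc16 (0.985). No member was among the 3 genes closest to another.

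The genes around the scaffolds were counted as lists, with no gene of any list called by edgeR in any comparison. In the tTA::miR132 comparison the close relatives of the members had 4 of 8 measured genes with both libraries below both controls and 1 above, beside 14.2% and 18.7% of all genes, and a median log2 fold change of -0.36. Unc13c, a Munc13 relative, had 44.5 and 41.9 CPM in tTA::miR132 against 56.8 and 94.8 CPM in controls. Bzrap1, which encodes a RIM-binding protein, had 79.0 and 128 CPM in tTA::miR132 against 162 and 143 CPM in controls. The groups of Unc13b overlapped, with 43.9 and 53.0 CPM in tTA::miR132 against 52.4 and 92.3 CPM in controls. Ppfia4, a liprin, had 44.9 and 66.7 CPM in tTA::miR132 against 75.2 and 82.9 CPM in controls. The relative with both libraries above both controls was Ppfia2. Calcium channel subunits of the presynapse had 3 of 10 below and 0 above (Cacna1e, Cacnb2 and Cacna2d1), with a median of -0.15. Among the binding partners 5 of 23 were below and 3 above, in the fusion machinery 4 of 21 below and 3 above, and among vesicle proteins 2 of 15 below and 2 above.

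In the deletion the calcium channel list had 3 of 9 genes above and 0 below, beside 14.3% and 17.9% of all genes, among them Cacna2d1 with 447 and 357 CPM in cKO against 271.5 and 309 CPM in controls (0.50, SE 0.24). The fusion machinery had 3 of 20 above and 4 below, the binding partners 1 of 24 above and 2 below, and the close relatives 1 of 8 above and 1 below. Vesicle proteins had 4 of 15 above and 0 below, such as Sncb, beta-synuclein, with 391 and 341 CPM in cKO against 216 and 296 CPM in controls (0.54, SE 0.26). In tTA::miR212 the fusion machinery had 3 of 20 genes below and 0 above, beside 4.96% and 6.47% of all genes. The close relatives had 0 of 5 apart in either direction, the calcium channels 1 of 9 below and 0 above, and the vesicle proteins 1 of 15 above and 0 below. Doc2b, a calcium sensor for release, had 65.2, 73.8 and 78.9 CPM in tTA::miR212 against 106, 97.7 and 98.5 CPM in controls (-0.48, SE 0.12; edgeR adjusted p = 0.715). Syt2, the calcium sensor synaptotagmin 2, had 57.5, 52.4 and 70.2 CPM in tTA::miR212 against 71.3, 77.0 and 105 CPM in controls (-0.50, SE 0.17; edgeR adjusted p = 0.802). Binding partners had 3 of 18 above and 0 below, with Amph, the endocytic protein amphiphysin, at 321, 359 and 389 CPM in tTA::miR212 against 318.5, 286 and 288 CPM in controls (0.25, SE 0.09; edgeR adjusted p = 0.802).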

How the data were processed

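The authors deposited whole-number read counts per gene (deletion, tTA::miR132) or transcript (tTA::miR212), not normalized, per the file headers. Per the series design text, reads were aligned to mm9 with Bowtie 0.12.7 and handled with custom R scripts. The same text also names Cufflinks 1.2. Which tool and annotation produced the whole-number counts, and whether strand was used, is not given in the sources used here. For tTA::miR212 the transcript with the highest mean count per symbol was kept (2555 symbols had several). The 14 deposited columns of normalized values were not used, and 1 repeated header line was removed. CPM is the count per 1000000 of the library's counts over the rows used (the kept transcripts for tTA::miR212), and log2 fold changes with SE (the fold change over the root of F) come from edgeR 4.0.16 in R 4.3.3, each table fitted alone with its quasi-likelihood test, TMM, filterByExpr and Benjamini-Hochberg adjustment over all genes at 0.05. The script was tested on simulated data. An expected count is the gene's share in the table's other libraries times the library's total, compared with genes within 1.5 times of it. DESeq2 1.42.0, limma 3.58.1 (voom), other scalings, no filter, a replicate block and each library left out were tried. All members were named, with up to 4 genes per list by smallest p, and the 3 genes most alike by r of log2(CPM + 1) among those of mean CPM 10 or more. The members and lists were chosen with earlier results of these data known. The list of adhesion molecules and receptor phosphatases is not reported here.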

Additional observations from a re-analysis of the deposited data

Results flagged for a closer look

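Pclo had groups that lay apart in opposite directions in the tTA::miR212 and tTA::miR132 comparisons, whose transgenes encode microRNAs with the same seed. All 3 tTA::miR212 libraries lay above all 3 of their controls (log2 fold change 0.19, SE 0.08; edgeR adjusted p = 0.843), and both tTA::miR132 libraries lay below both of theirs (-0.81, SE 0.25). The tTA::miR132 value is among those known when the members were chosen and is not tested, so the contrast is a description. The difference between the comparisons was not tested, because the tables were counted on different gene models and have separate controls. In tTA::miR212 library 3 held the highest value, and the fold change was 0.09 without it.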

How the results depend on the processing

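Leaving out 1 library at a time changed the most. In the deletion the genes called ranged from 1 to 4527, the highest without cKO library 2, when library 1 stood alone and Rims1, Rimbp2, Unc13a, Erc1 and Erc2 passed the threshold. The fit without cKO library 2 tested 10537 genes, and calls were common across the whole table. The calls of these members therefore say nothing particular to them. The log2 fold changes in the deletion ranged from -0.19 to 0.12 for Pclo, -0.16 to 0.11 for Bsn, -0.55 to 1.87 for Rims1, -0.0058 to 0.64 for Rims2, -4.10 to 0.81 for Rimbp2, -0.37 to 0.57 for Ppfia3 and 0.038 to 0.93 for Erc1. With 1 library left out, 1 to 6 members lay above every control and 0 to 3 below. Over all genes the shares were 24.0% to 36.7% above and 29.8% to 50.4% below. For tTA::miR132, 0 to 111 genes were called (the most without control library 1), 1 to 2 members lay above and 5 to 7 below, and fold changes ranged from -10.69 to -2.39 for Rims3, -0.87 to 0.18 for Rims2, -0.79 to 0.42 for Rimbp2, -0.21 to 0.42 for Erc1, -0.023 to 0.011 for Unc13a and 0.11 to 1.80 for Ppfia3. Over all genes of the tTA::miR132 table the shares with 1 library left out were 31.7% to 44.5% above and 23.9% to 35.9% below. For tTA::miR212, 0 to 18 genes were called (the most without tTA::miR212 library 1). In these fits 2 members lay above and 0 to 1 below, beside 10.4% to 15.9% and 8.58% to 11.6% of all genes. Rims1 ranged from -0.26 to -0.07, Rims3 from -0.33 to -0.01, Rimbp2 from -0.40 to -0.11, Bsn from -0.12 to 0.10, Rims2 from -0.032 to 0.11, Erc2 from -0.039 to 0.074 and Ppfia3 from -0.063 to 0.063. A lone library is assumed to vary like the other group. DESeq2 called 5 genes in the deletion and 39 for tTA::miR132, and limma-voom 2 for tTA::miR132; the cause was not tested. With the replicate number as a block 1 gene was called for tTA::miR132 and 1 for tTA::miR212. Same-numbered libraries did not deviate together (r of 0.012 in the deletion, 0.013 for tTA::miR132, and -0.073, 0.021 and -0.033 for tTA::miR212), so the numbers are not taken to pair them. Upper-quartile scaling put Ppfia3 in the deletion at -0.012, against 0.03, and Unc13a in tTA::miR132 at 0.043, against -0.01. In tTA::miR132 Unc13a also turned with raw library totals (0.036) and Rimbp2 with upper-quartile scaling (0.0018, against -0.06). No other value of a single member turned its sign under another test, scaling, filter or block, and in the deletion and tTA::miR212 no member passed the threshold under these. Low counts of Rims3 and Rimbp2 limit their values most.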
